A study of Mus musculus with 8 samples.

Results

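The genes described here are 27 genes of cholesterol synthesis, of its control by the SREBP transcription factors and of sterol uptake and transport, taken by symbol from a table of 48440 mouse genes. All 27 were in the table, and 25 passed the expression minimum used for testing. The RNA is from jejunal epithelium, sorted from females of the Sox9-EGFP strain (C57BL/6J background), in which green fluorescence reports on Sox9, a transcription factor of the crypts. The cells kept had a low reporter signal and were negative for Annexin-V, CD31, CD45 and Sytox-blue. All animals were raised germ-free. Of each of 4 littermate pairs (A to D), 1 animal was moved to another animal house at 8 to 10 weeks of age and given fecal slurry by gavage, while its littermate remained germ-free, and both were studied 2 weeks later. This gave 4 conventionalized (CV) and 4 germ-free (GF) libraries, 1 per animal, and the move between houses cannot be told apart from the microbiota.

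Cells make cholesterol from acetyl-CoA. The mevalonate steps build isoprenoid units, the squalene and lanosterol steps join and fold them into the first sterol, and the later steps trim that sterol to cholesterol. When sterol in the endoplasmic reticulum falls, the escort protein Scap carries SREBP to the Golgi, where proteases release its active part, and that part switches on the genes of synthesis. When sterol is plentiful, the Insig proteins hold Scap back. The intestinal epithelium both makes cholesterol and takes it up from the lumen through Npc1l1.

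SREBP-bound promoters are known for a sterol regulatory element (SRE), for E-boxes and for the inverted CCAAT box bound by NF-Y, so stretches upstream of 5 members are printed to show these letters. They come from RefSeq (GRCm38.p6), which held promoter windows, from 250 bases before to 50 bases after a start, for 22 of the 27 genes. Hmgcs1 and Ebp are enzymes whose fold changes had opposite signs, Srebf2 and Insig1 are control genes known as SREBP targets, and Npc1l1 is the uptake transporter. Capitals mark the letters TCACNCCA, CACGTG or ATTGG on either strand, and each stretch ends before the earliest annotated start.
Hmgcs1, chr13:119690151-119690350, plus strand: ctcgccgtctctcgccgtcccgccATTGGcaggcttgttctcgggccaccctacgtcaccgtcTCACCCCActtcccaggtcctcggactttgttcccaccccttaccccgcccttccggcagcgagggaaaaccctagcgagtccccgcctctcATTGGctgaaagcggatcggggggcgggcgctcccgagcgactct
Ebp, chrX:8193513-8193712, minus strand: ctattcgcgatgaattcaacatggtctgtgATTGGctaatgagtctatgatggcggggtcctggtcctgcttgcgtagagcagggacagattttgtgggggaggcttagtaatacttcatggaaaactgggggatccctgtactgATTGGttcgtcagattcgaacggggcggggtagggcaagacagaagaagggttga
Srebf2, chr15:82147019-82147180, plus strand: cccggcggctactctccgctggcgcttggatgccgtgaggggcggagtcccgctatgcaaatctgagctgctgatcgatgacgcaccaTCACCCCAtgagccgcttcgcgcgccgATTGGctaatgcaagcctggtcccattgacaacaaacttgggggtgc
Insig1, chr5:28071163-28071362, plus strand: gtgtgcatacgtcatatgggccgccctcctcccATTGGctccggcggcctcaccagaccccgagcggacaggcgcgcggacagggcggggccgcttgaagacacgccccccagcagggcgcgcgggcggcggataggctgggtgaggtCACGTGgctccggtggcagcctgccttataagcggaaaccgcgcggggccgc
Npc1l1, chr11:6230246-6230445, minus strand: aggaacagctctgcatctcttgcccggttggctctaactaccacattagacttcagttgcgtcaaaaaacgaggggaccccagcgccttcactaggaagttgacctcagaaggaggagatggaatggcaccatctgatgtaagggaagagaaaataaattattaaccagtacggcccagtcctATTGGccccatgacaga
The SRE-like letters TCACNCCA (reverse TGGNGTGA) stood in 3 of 30 windows of the members, those of Hmgcs1, Msmo1 and Srebf2, and in 4.36% of 32851 windows of all genes. The E-box CACGTG, which reads the same on both strands, stood in 7 of the 30 windows and in 7.15% of all windows. The short inverted CCAAT box ATTGG stood in 20 of the 30 windows, from 19 genes, and in 37.4% of all windows. The 3 motifs share no overlapping match in the printed stretches. A match describes letters only, and windows of 1 gene can overlap.

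No member passed the test between conventionalized and germ-free animals. limma called 0 of the 25 tested members at an adjusted p under 0.05, against 1.16% of 10053 tested genes higher and 3.76% lower in conventionalized animals (4.92% in either direction). At an unadjusted p under 0.05 there were 3 members (Acat2, Ebp and Stard4, all higher in conventionalized animals), or 3 of 25 against 19.7% of tested genes higher and 8.12% lower (27.8% in either direction). By limma's voom with library quality weights 0 members were called, against 5.52% of tested genes higher and 5.5% lower, and 4 were at an unadjusted p under 0.05, or 4 of 25 against 29.0% of tested genes. With the littermate pair as a block 2 members rose, Acat2 and Stard4, and 0 fell, against 8.08% of tested genes higher and 5.02% lower in that fit. In none of the 27 genes did the 4 conventionalized libraries lie apart from the 4 germ-free ones, against 9.03% of tested genes with all conventionalized libraries higher and 5.88% with all germ-free libraries higher.

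Values are CPM, the signal of a gene as a share of its library's total after TMM scaling, given as mean ± SD (n = 4 animals per group) where an error is given. Fold changes are CV minus GF differences on the log2(CPM + 0.5) scale with standard error (SE), a scale that understates changes of low genes. Of the 25 tested members 18 had a positive fold change, against 70.2% of all tested genes. The 17 tested synthesis enzymes had a median log2 fold change of 0.50, beside 0.32 over all tested genes. With library size as the only scaling these medians were 0.27 and 0.09, so the enzymes' median lay 0.18 or 0.19 above that of all genes. This excess depended on the expression minimum: the medians were 0.47 and 0.03 at 1 CPM, and 0.47 and -0.06 with no filter (18 enzymes tested). It also depended on single libraries: without CV A the enzymes' median was 0.21 beside 0.24 for all genes, and without GF D 0.33 beside 0.33. Without CV A and GF C the enzymes' median was 0.18 beside 0.15. With any other single library left out it lay 0.13 to 0.18 above that of all genes. In 7 members the conventionalized animal was higher in all 4 pairs, and in 0 the germ-free animal was, against 28.4% and 9.89% of tested genes.

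**Figure D1:**
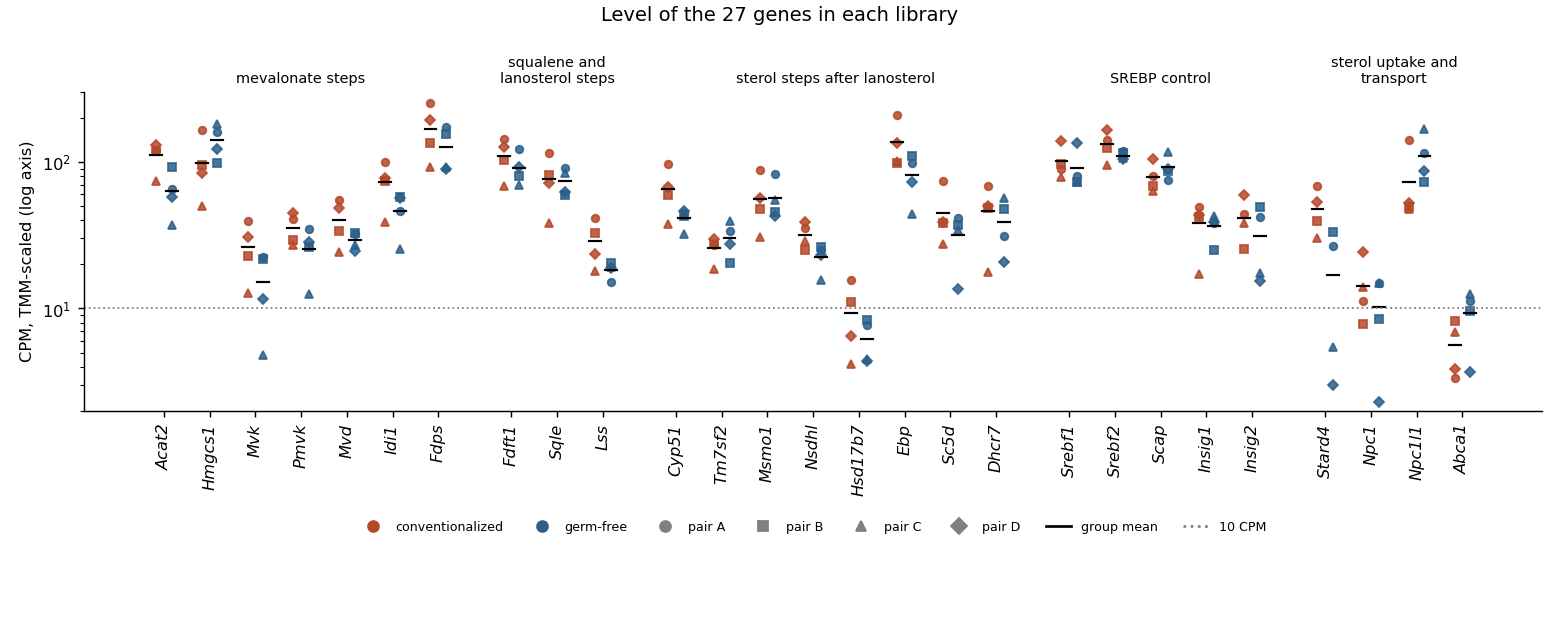
Level of each of the 27 genes in CPM (log axis) in every library, by step of the pathway. Colour gives the group, marker shape the littermate pair, bars the group mean and the dotted line the 10 CPM minimum. In every gene the conventionalized and germ-free points overlap.

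On an approximate scale, each total divided by the smallest step of its library, CV A to CV D gave 15998952, 9924726, 9363889 and 19139685 reads. GF A to GF D gave 8758633, 11648529, 6209041 and 9747147 reads, with the fewest in GF C. The summed level of 8 stem cell markers, among them Sox9, Lgr5 and Olfm4, was 5291 to 10354 CPM in CV and 893 to 5441 CPM in GF libraries, and 1 of them (Lgr5) and 9 of 12 mitosis genes rose. Of 10 enteroendocrine markers 6 fell, with summed levels of 8929.9 to 22991 CPM in CV and 37314 to 88569.8 CPM in GF libraries. Of 10 tested enterocyte markers 3 fell, while 6 had positive fold changes (median log2 fold change 0.27, beside 0.32 over all tested genes). Over all tested genes 1.16% were called higher and 3.76% lower in conventionalized animals. In all, 11 leukocyte markers summed to 12.5 to 31.2 CPM. The 7 endothelial and stromal markers summed to 3.58 to 25.3 CPM in CV and 23.4 to 51.5 CPM in GF libraries. Of these only Pecam1 (CD31), which the sort gated out, was tested, and it fell (log2 change -2.03, adjusted p = 0.0218 by limma). It was at 5.0 ± 3.34 CPM against 19.9 ± 5.69 CPM, and Cdh5 was at 0 CPM in CV D. Goblet cell markers summed to 50799 CPM in the conventionalized library of pair A (CV A) and 1569 to 8181 CPM in the other 7. Of 7 Paneth cell markers 1 (Mptx2) rose. They summed to 6369.7 to 9622 CPM in CV libraries and to 15663, 10928, 2627 and 3658 CPM in GF A to GF D. The 4 tested tuft cell markers had negative fold changes (median log2 fold change -0.92), and 0 passed. Tuft cell markers summed to 63.2 to 549 CPM in CV, lowest in CV A, and 266 to 550 CPM in GF libraries. The germ-free library of pair C (GF C) had a median correlation of 0.792 with its group, against 0.871 to 0.943 for the others. The part of these differences in the results on sterol genes was not tested, and in bulk RNA fewer cells of a type and less RNA per cell cannot be told apart.

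Among the mevalonate enzymes 6 of 7 had positive fold changes and Hmgcs1 a negative one. Acat2, the cytosolic thiolase that joins acetyl-CoA units (ENSMUSG00000023832.13, GRCm38 chromosome 17, 12942890 to 12960747), was at 121, 118, 73.6 and 131 CPM in CV A to CV D. Its germ-free values were 65.2, 92.3, 36.8 and 57.1 CPM. The conventionalized littermate was higher in each pair, by 0.36 to 1.19 on the log2 scale, while CV C lay below GF B, so the groups overlapped. The log2 fold change was 0.86 (SE 0.32, adjusted p = 0.128 by limma, adjusted p = 0.0464 with the littermate block). Acat2 has a close paralog, Acat3, whose transcript matched at 97.7% identity over 1477 bases. Acat3 was at 2.86 ± 1.05 CPM against 4.27 ± 3.86 CPM, and reads can be divided wrongly between them. A stretch of 445 bases also matched a transcript of Tcp1 at 98.7%.

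Hmgcs1, the synthase of HMG-CoA (ENSMUSG00000093930.1, chromosome 13, 119690379 to 119708260), had the opposite sign to the other mevalonate enzymes. It stood at 164, 94.5, 49.6 and 83.9 CPM in conventionalized libraries A to D and at 159.5, 98.7, 180 and 123 CPM in GF ones. The littermates hardly differed in pairs A and B (0.04 and -0.06), and the germ-free animal was higher in pairs C and D (-1.85 and -0.55). The fold change of -0.61 (SE 0.36, adjusted p = 0.264 by limma, 95% interval -1.38 to 0.17) did not pass, and it was -0.32 without CV C and -0.92 without CV A. Set against the mean of the other 6 mevalonate enzymes in the same library, Hmgcs1 lay 1.02, 0.78, 0.45 and 0.24 higher on the log2 scale in conventionalized libraries. In germ-free libraries it lay 1.70, 0.97, 2.94 and 1.74 higher. These values describe a gene chosen for this pattern and carry no test. An antisense gene, Gm48342, shares 12.1% of the exon bases of Hmgcs1, and the sources used here do not give the strand setting of the counting.

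The mevalonate enzymes after Hmgcs1 had positive fold changes, and none passed the test. Mevalonate kinase, Mvk, ranged from 12.8 to 39.4 CPM in CV and from 4.78 to 22.6 CPM in GF libraries (log2 change 0.89 with SE 0.48, adjusted p = 0.228 by limma). Its lowest value was that of GF C, and without that library the fold change was 0.44. Phosphomevalonate kinase, Pmvk, was at 35.4 ± 8.80 CPM against 25.5 ± 9.42 CPM, and the decarboxylase Mvd, which yields the isoprenoid unit, at 40.4 ± 13.8 CPM against 29.2 ± 3.91 CPM. Idi1, which isomerizes that unit, was at 99.5, 73.6, 38.8 and 77.7 CPM in conventionalized libraries and 46.1, 57.9, 25.3 and 56.6 CPM in GF ones. The conventionalized littermate was the higher one in each pair for Idi1, yet CV C lay below 3 of the 4 germ-free libraries (log2 change 0.63 with SE 0.35, adjusted p = 0.241, and 0.36 without GF C). Fdps, the farnesyl diphosphate synthase, was at 168 ± 69.0 CPM against 127 ± 42.6 CPM. Fdps and Idi1 have processed pseudogenes that match at 96.1% identity or more, so their values are less certain. Fdps also shares 26.7% of its exon bases with Gm43738 on the same strand, which was at 0.116 ± 0.231 CPM against 0.0223 ± 0.0445 CPM.

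The squalene and lanosterol steps showed no common direction. Squalene synthase, Fdft1, was at 109.7 ± 31.7 CPM in CV and 91.1 ± 23.3 CPM in GF libraries. It shares 18.3% of its exon bases with Ctsb on the opposite strand (804 ± 192 against 471 ± 146 CPM), and reads there cannot be told apart unless the strand was used. A processed pseudogene, Gm6781, matched Fdft1 at 97.4% identity over 1249 bases. Squalene epoxidase, Sqle, an oxygen-dependent and tightly controlled step, was at 114, 81.5, 38.0 and 71.9 CPM in conventionalized libraries and 91.2, 59.4, 83.7 and 62.7 CPM in GF ones. Sqle was higher in the conventionalized animal of pairs A, B and D (0.32, 0.45 and 0.20) and lower in pair C (-1.13). Its fold change of -0.04 (SE 0.34, 95% interval -0.76 to 0.68) became 0.26 without CV C, 0.06 without GF A and 0.02 without GF C. Lss, which folds the chain into lanosterol, was at 28.8 ± 10.4 CPM against 18.4 ± 2.23 CPM (log2 change 0.57 with SE 0.31, adjusted p = 0.228 by limma).

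After lanosterol, 5 of 7 tested enzymes had positive fold changes, led by Ebp. Ebp, the sterol isomerase (ENSMUSG00000031168.14, chromosome X, 8185329 to 8193512), was at 207, 98.7, 102 and 135 CPM in conventionalized libraries and at 97.4, 109.7, 44.2 and 73.2 CPM in GF ones. Only pair B had the germ-free animal higher, and CV B and CV C lay below GF B (log2 change 0.75 with SE 0.35, adjusted p = 0.178 by limma). Without CV A and GF C together the fold change of Ebp was 0.27. The lanosterol demethylase Cyp51 was higher in the conventionalized animal of each pair, at 64.9 ± 24.2 CPM against 41.3 ± 6.17 CPM (adjusted p = 0.218). Nsdhl, a sterol dehydrogenase, was at 31.9 ± 6.17 CPM against 22.5 ± 4.66 CPM (adjusted p = 0.241), and the desaturase Sc5d at 44.6 ± 19.9 CPM against 31.5 ± 12.3 CPM (adjusted p = 0.378).

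Dhcr7, the reductase of the last step, was split by pair. Its values were 68.3, 48.7, 17.7 and 49.7 CPM in CV and 31.2, 47.8, 56.4 and 20.9 CPM in GF libraries. The conventionalized animal was higher by more than 1 log2 unit in pairs A and D (by 1.23 in D), close to its littermate in B (0.03) and lower in C (-1.65). The fold change of 0.18 (SE 0.42, adjusted p = 0.784 by limma) turned to -0.09 without CV A, -0.08 without GF D and -0.05 with library size only. Tm7sf2, a sterol reductase, and Msmo1, the methylsterol oxidase, had negative fold changes of -0.22 (SE 0.30) and -0.08 (SE 0.34), with 95% intervals of -0.85 to 0.42 and -0.81 to 0.66. Msmo1 turned to 0.17 without CV C and 0.12 without GF A. Tm7sf2 shares 12.1% of its exon bases with Vps51 on the same strand. Hsd17b7, a sterol ketoreductase, was below the minimum, at 4.18 to 15.6 CPM in CV and 4.37 to 8.30 CPM in GF libraries, and was not tested. Hmgcs1, Sqle, Tm7sf2 and Msmo1 were thus the 4 tested enzymes with a negative fold change. None of them passed the test, and the values of Sqle and Msmo1 lay close to 0 with either sign.

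**Figure D2:**
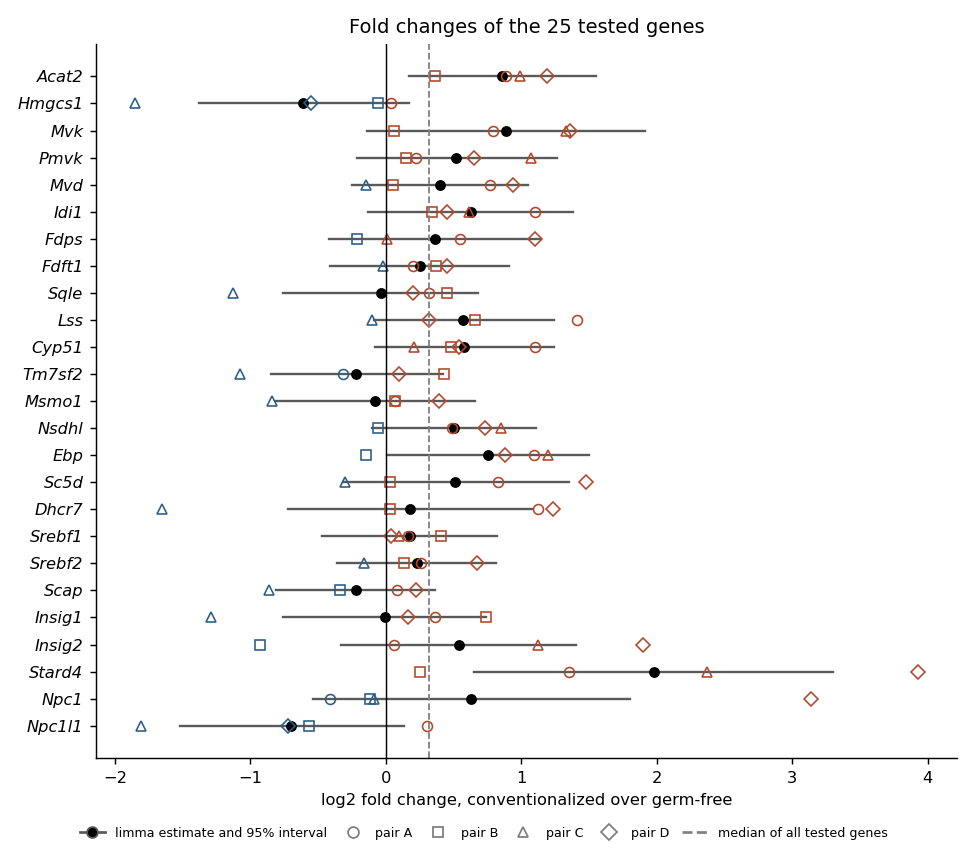
log2 fold change of the 25 tested genes (black, limma estimate with 95% interval) and the difference in each littermate pair (open markers, red above and blue below 0). The dashed line is the median of all tested genes, 0.32, and the 95% intervals of Acat2, Ebp and Stard4 alone lie above 0.

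The spread of the enzymes among conventionalized libraries was wider than the difference between the groups. The summed level of the 18 enzymes was 1679, 1079.9, 710.4 and 1252 CPM in conventionalized libraries A to D and 1126, 981, 833 and 817 CPM in GF ones, or 1180.3 ± 402 CPM against 939 ± 145 CPM. CV A was the highest and CV C the lowest of all 8 libraries. Among conventionalized libraries CV A had the highest value for 14 of the 18 enzymes and CV C the lowest for 16, against 34.2% and 54.9% of all tested genes. CV A was also the library with the most goblet cell signal, and its enterocyte markers summed to 3505 CPM against 1359 to 1887 CPM in the other conventionalized libraries. In GF A to GF D the enterocyte markers summed to 4188, 2433, 3218 and 2203 CPM. Their part in the enzyme levels was not tested. Without CV A the log2 fold changes were 0.20 for Mvd, 0.10 for Fdps, 0.08 for Fdft1, 0.35 for Lss, 0.34 for Cyp51 and 0.21 for Sc5d. Without GF C that of Pmvk was 0.22, and without GF D that of Sc5d was 0.16.

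The enzymes ran most apart in pair C. The conventionalized animal was higher for 17 of 18 enzymes in pair A, 14 in pair B and 17 in pair D, but for 8 in pair C, against 68.3%, 54.8%, 70.4% and 63.1% of tested genes in pairs A, B, D and C. Median differences of the enzymes were 0.78, 0.11, -0.06 and 0.59 in pairs A to D, beside 0.32, 0.06, 0.35 and 0.49 over all tested genes. In pair C the differences ran from -1.85 for Hmgcs1 to 1.33 for Mvk. On the low side stood Dhcr7 (-1.65), Sqle (-1.13), Tm7sf2 (-1.08) and Msmo1 (-0.84), and on the high side Ebp (1.2), Pmvk (1.07), Acat2 (0.99) and Nsdhl (0.85). In GF C, the library with the lowest correlation with its group, 8 of the 18 enzymes had their lowest germ-free value (55.7% of all tested genes did) and 3 (Hmgcs1, Tm7sf2 and Dhcr7) their highest (16.3% of tested genes).

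**Figure D3:**
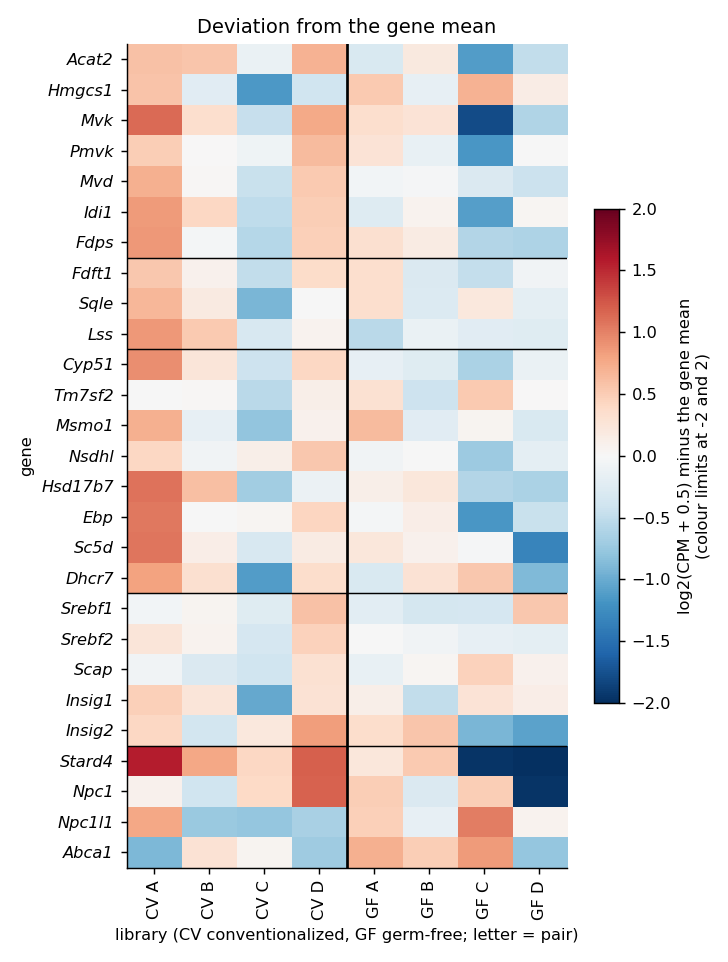
Deviation of log2(CPM + 0.5) from the gene's mean over 8 libraries, with genes in rows by step and libraries in columns (CV conventionalized, GF germ-free, letter for the pair). CV A is red in most enzyme rows, CV C blue, and GF C mixes blue rows such as Mvk and Ebp with red rows such as Hmgcs1 and Npc1l1.

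The control genes gave no call. Srebf2, the SREBP that mainly drives cholesterol synthesis, was at 141, 125, 94.6 and 165 CPM in CV and 118, 114, 106 and 104 CPM in GF libraries. The germ-free values lay close together, inside the range of the conventionalized ones (log2 change 0.23 with SE 0.27, 95% interval -0.36 to 0.81). Srebf1, which mainly drives fatty acid synthesis, was at 88.7, 96.5, 78.4 and 139 CPM against 79.6, 72.3, 73.3 and 135 CPM. In pair D both littermates had the most Srebf1 of their group (log2 change 0.18 with SE 0.30, 95% interval -0.47 to 0.82, and -0.01 without CV D). With library size only the fold changes of Srebf1 and Srebf2 were -0.06 and -0.01. The log2 ratio of Srebf1 to Srebf2 was -0.39 ± 0.19 in CV and -0.34 ± 0.48 in GF libraries (n = 4, exact two-sided permutation p = 0.914, 0.914 adjusted over 2 ratios). Its difference of -0.05 became 0.04 without CV A and 0.19 without GF D.

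Scap and the Insig proteins set how much SREBP leaves the endoplasmic reticulum. Scap was at 78.8 ± 18 CPM against 91.6 ± 17 CPM (log2 change -0.22 with SE 0.27, adjusted p = 0.588 by limma). Insig1, itself switched on by SREBP, was at 49.3, 42.1, 17.1 and 43.5 CPM in CV and 38.3, 25, 42.7 and 39.0 CPM in GF libraries. Its fold change was -0.01 (SE 0.35, 95% interval -0.76 to 0.74), with CV C far below the other conventionalized libraries. It was 0.33 without CV C, 0.02 without GF A, 0.08 without GF C and 0.03 without GF D. Insig2, the less SREBP-dependent form, was at 44.0, 25.4, 38.3 and 59.2 CPM against 42.3, 48.8, 17.4 and 15.5 CPM. Pairs B and D differed in opposite directions for Insig2 (-0.93 and 1.90), and its fold change of 0.54 was 0.27 without GF D. The log2 ratio of Insig1 to Insig2 was -0.18 ± 0.80 against 0.37 ± 1.11 (n = 4, exact two-sided permutation p = 0.429, 0.858 adjusted over 2 ratios), where 70 assignments allow no p under 0.0286. Its difference of -0.55 ran from -0.99 without GF B to -0.23 without CV C.

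Of the uptake and transport genes, Stard4 had the largest fold change of all tested members. Stard4, a carrier that moves sterol between membranes, was at 68.8, 39.3, 30.4 and 52.9 CPM in CV and 26.8, 33.0, 5.46 and 2.99 CPM in GF libraries. The conventionalized animal was higher in each pair, by 0.25 log2 units in B, 2.37 in C and 3.93 in D, with A between B and C, and only CV C and GF B overlapped. Its log2 fold change was 1.98 (SE 0.62, adjusted p = 0.083 by limma), with adjusted p = 0.0272 with the littermate block and 0.0329 without GF B. It was 1.39 without GF D, 1.65 without GF C and 1.45 without CV A and GF C, with adjusted p = 0.16, 0.375 and 0.377. By voom with library quality weights it was 1.16 (adjusted p = 0.215), the lowest of the 16 alternatives.

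Npc1l1, the transporter that takes cholesterol up from the lumen (ENSMUSG00000020447.5, chromosome 11, 6211013 to 6230143), had a negative fold change. It was at 140.4, 49.1, 47.7 and 52.1 CPM in CV and 114, 73.1, 168 and 86.3 CPM in GF libraries. CV A stood far above the other 3 conventionalized libraries, each of which lay below every germ-free one. The fold change of -0.70 (SE 0.38, adjusted p = 0.234 by limma) was -1.10 without CV A (adjusted p = 0.116) and -0.47 without GF C. Npc1, which lets sterol out of lysosomes, had a positive fold change of 0.63 (SE 0.54, adjusted p = 0.436 by limma) although the germ-free animal was higher in 3 of 4 pairs. GF D held 2.32 CPM of Npc1 beside 24.4 CPM in its littermate, and without GF D the fold change was 0.09. Abca1, the sterol exporter, was not tested, with 3.36 to 8.27 CPM in CV and 3.68 to 12.5 CPM in GF libraries.

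**Figure D4:**
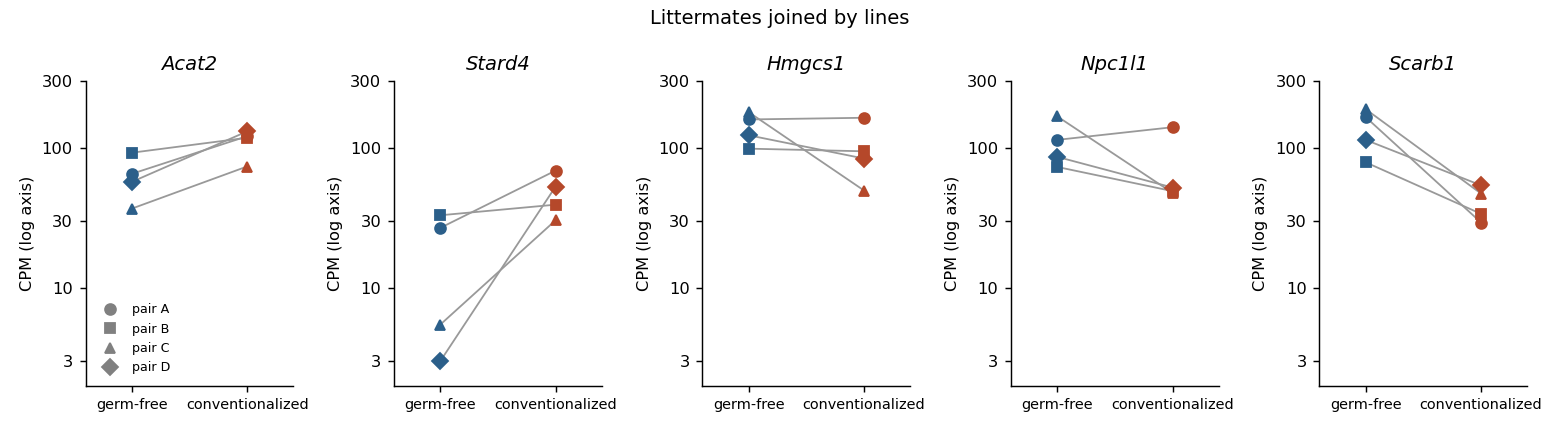
CPM (log axis) of Acat2, Stard4, Hmgcs1, Npc1l1 and Scarb1 in germ-free and conventionalized littermates, joined by a line per pair. The conventionalized animal is higher for Acat2 and Stard4 and lower for Scarb1 in all 4 pairs, while Hmgcs1 and Npc1l1 are lower in it in pairs B, C and D and higher in pair A.

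Per kilobase of annotated exon, averaged over the 8 libraries, the members spanned from 0.717 CPM for Abca1 to 47.0 CPM for Ebp, beside a median of 9.99 CPM over 10047 tested genes. Ebp, Fdps (35), Acat2 (34.2), Hmgcs1 (25.9) and Fdft1 (23.8) led the order, and Lss (2.19), Hsd17b7 (1.52), Npc1 (1.08) and Abca1 (0.717) closed it. The length was that of all annotated exons of a gene joined, not of a single transcript (10787 bases for Lss, from 8 transcripts). Places in the order thus depend on the annotation. The ranges over libraries overlapped between every gene and the next in this order. Srebf1 (16.9) and Srebf2 (16.8) lay side by side, as did Insig1 (12) and Cyp51 (12).

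Medians of the neighbouring lists are to be set beside the 0.32 of all tested genes. In 4 such lists, with 12, 7, 13 and 12 tested genes, 1 gene passed the test, while 4.92% of all tested genes did. It was the lipoprotein receptor Scarb1, which binds high-density lipoprotein and moves cholesterol across the membrane. Scarb1 was at 29.3, 33.8, 47.2 and 54.0 CPM in CV and 166, 78.9, 189 and 114 CPM in GF libraries. The groups did not overlap (5.88% of tested genes had all germ-free libraries higher), and Scarb1 fell by 1.69 on the log2 scale (SE 0.33, adjusted p = 0.0108 by limma). It was called in each of the 16 alternatives, with -1.36 without CV A and GF C. In the list of sterol storage, efflux and LXR genes, 1 of 13 tested members fell and 0 rose (median log2 fold change 0.39). With the littermate block 3 rose and 2 fell, against 8.08% of all tested genes higher and 5.02% lower in that fit. Abcg5, which with Abcg8 pumps sterol back to the lumen, was at 76.3 ± 20.6 CPM against 31.8 ± 12.4 CPM without overlap (log2 change 1.33 with SE 0.36, adjusted p = 0.0501, 0.0175 with the block). Gramd1b, a sterol carrier between membranes, had a log2 fold change of -1.23 (SE 0.41, adjusted p = 0.095, 0.0416 with the block). With the block, Abcg8 and Soat1, which esterifies cholesterol, rose too. The genes of this list below the minimum were not tested, and each had a lower mean in CV libraries. These were Abcg1 (4.83 ± 1.58 against 15.1 ± 6.93 CPM) and Mylip (4.77 ± 2.51 against 11.6 ± 4.79 CPM). The others were Lipa (4.04 ± 1.3 against 7.22 ± 1.43 CPM) and Gramd1c (6.45 ± 2.17 against 9.2 ± 2.09 CPM).

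Fatty acid genes driven by SREBP held 0 calls among 12 tested members (4 of 12 at an unadjusted p under 0.05, against 27.8% of all tested genes, and a median log2 fold change of 0.28, against 0.32), while with the littermate block 3 rose (Fads1, Fads2 and Acss2, an acetyl-CoA synthetase) and 1 fell (Mid1ip1), and by voom 4 rose and 1 fell. Over all tested genes the block called 8.08% higher and 5.02% lower, and voom 5.52% and 5.5%. The desaturase Fads2 was at 310.3, 321, 211 and 395 CPM in CV and 122, 187, 36.4 and 147 CPM in GF libraries, without overlap (log2 change 1.52 with SE 0.45, adjusted p = 0.0695 by limma, 0.0142 with the block). Fads1, its partner in making polyunsaturated fatty acids, had a log2 fold change of 1.17 (adjusted p = 0.0659, 0.021 with the block). Mid1ip1, an activator of acetyl-CoA carboxylase, had the opposite sign at -1.0 (SE 0.31, adjusted p = 0.084, 0.0335 with the block) and did not overlap either. Without GF C the log2 values of Fads2, Fads1, Mid1ip1 and Abcg5 were 1.01, 0.94, -1.0 and 0.97, each passing the test. Without GF B Fads2, Fads1 and Abcg5 passed. With any other single library left out none of these genes passed by limma. Their adjusted p then ran from 0.0685 (Abcg5 without GF A) to 0.223 (Fads1 without CV D). With no filter none passed either (adjusted p = 0.1, 0.144, 0.2 and 0.114 in the same order), nor did any at a minimum of 1 CPM (0.0595 to 0.109). With upper-quartile scaling Fads1, Fads2 and Abcg5 passed by limma (adjusted p = 0.0372, 0.0407 and 0.0289), and Mid1ip1 did not (0.0595). With library size only Fads1, Mid1ip1 and Abcg5 passed (adjusted p = 0.0443, 0.0103 and 0.0317), and Fads2 did not (0.0581). With a pseudocount of 2 only Abcg5 passed (adjusted p = 0.0425). Without CV A and GF C together Abcg5 did not pass (0.83, adjusted p = 0.109), while Fads2, Fads1 and Mid1ip1 did. In the isoprenoid branch 0 of 12 tested genes passed (median 0.25), and with the block Pdss1, which makes the tail of coenzyme Q, rose (log2 fold change 1.5, adjusted p = 0.147, 0.0495 with the block). GF C held 3.98 CPM of Pdss1 beside 27.7 to 57.4 CPM in the other germ-free libraries, and without GF C the fold change was 0.70. Pdss2 and Coq2 of the same route had log2 fold changes of 0.69 and 0.57 (adjusted p = 0.196 and 0.209). SREBP processing and turnover genes gave 0 calls among 7 tested with limma, 0 at an unadjusted p under 0.05, and 0 with the block or by voom, with log2 fold changes of 0.48 for Rnf139 and 0.44 for Ubxn8. How far the stem cell, mitosis and enteroendocrine markers given above move these genes was not tested.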

How the data were processed

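RNA was sequenced from 8 libraries of sorted jejunal cells, 4 per group, made by the authors from 10 ng of RNA with a kit for low input and read as 100 bp single ends, per the labels' protocols. Per the submitters' processing notes, the build was mm10, and the tools were STAR (2.4.2a), Trimmomatic (0.36), DESeq2 (1.12.4) and R (3.3.1). The series text names Salmon for quantification and 10 CPM as minimum. Each deposited value is a signal that the authors had already normalized. In 27909 genes with 1 transcript 99.7 to 99.8% of values above 0 were whole multiples of 1 step per library (tolerance 0.02), against 21.6 to 24.1% in 20149 genes with several, so no count test was run. Of 48440 genes, 48058 matched GENCODE M21 (GRCm38).

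TMM factors (trims of 30% and 5%) gave CPM. Testing used log2(CPM + 0.5) of genes that reached 10 CPM in 4 or more libraries, with limma 3.58.1 in R 4.3.3 (trend and robust empirical Bayes, group as the only term, two-sided, Benjamini-Hochberg over all 10053 tested genes, called under 0.05). CPM carries no depth per gene, and p-values measure the spread between these animals. The fit was also run on simulated data, with planted changes larger than those of the members, independent noise per gene and no littermate pairs. That run does not show how often changes as small as those of the members would be called. The 27 members and all lists were chosen with earlier results of these data known. All members are named, and of each neighbouring list up to 3 tested genes with the lowest p, of which 1 is not reported here. Acss2, Abcg8, Soat1, Abcg1, Mylip, Lipa and Gramd1c were named outside that rule, after their values were seen. Lgr5, Mptx2, Pecam1 and Cdh5 were named as markers.

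The labels pair the animals as littermates. The correlation of deviations from the group means was 0.14, -0.16, 0.31 and -0.01 in pairs A to D. The pair was fitted as a block as an alternative. Other alternatives were library size or upper-quartile scaling, a pseudocount of 2, a minimum of 1 CPM, no filter, voom with quality weights, and libraries left out. Near-identical transcripts were sought with at least 95% identity over 300 bases.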

Additional observations from a re-analysis of the deposited data

Results flagged for a closer look

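Of 54 sets of 4 values, 27 genes in each of 2 groups, 4 held a library far from the other 3 by Dixon's ratio of the gap to the range on the log2 scale (above the critical value at 95%). Chance alone flags about 1 in 20 such sets. Npc1l1 was at 140.4 CPM in CV A, with a ratio of 0.918. Insig1 was at 17.1 CPM in CV C, with a ratio of 0.851. Srebf1 was at 135 CPM in GF D, with a ratio of 0.848, and Sc5d at 13.6 CPM in the same library, with a ratio of 0.833.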

How the results depend on the processing

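Over 16 alternatives, 18 of the 25 tested members kept the sign of their fold change and 7 did not. Without CV A and GF C together, Npc1 fell under the minimum and 24 members were tested. The sign turned with library size only for Dhcr7 (-0.05), Srebf1 (-0.06) and Srebf2 (-0.01), with upper-quartile scaling for Insig1 (0.01), by voom for Sqle (0.08) and Insig1 (0.27), and without CV A and GF C for Fdft1 (-0.01). With 1 library left out, fold changes ran from -0.30 to 0.26 for Sqle, -0.36 to 0.17 for Msmo1, -0.09 to 0.58 for Dhcr7, -0.01 to 0.39 for Srebf1 and -0.21 to 0.33 for Insig1, the ratio of Srebf1 to Srebf2 from -0.15 to 0.19 and that of Insig1 to Insig2 from -0.99 to -0.23. Members called numbered 0 to 1 with 1 library left out, 2 with the littermate pair as replicate block and 0 in the other alternatives.

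Genes called over the whole table numbered 495 (117 higher, 378 lower), 1317 (812 higher, 505 lower) with the littermate block and 1108 (555 higher, 553 lower) by voom. Upper-quartile scaling gave 263 higher and 408 lower, no filter 45 higher and 311 lower, and leaving out CV A and GF C 235 higher and 407 lower. With 1 library left out there were 182 to 782 calls, 14 to 410 higher and 151 to 372 lower. The cause was not tested. With the littermate block, which leaves the mean difference as it is by construction, the ratios of Insig1 to Insig2 (-0.55) and of Srebf1 to Srebf2 (-0.05) had an exact permutation p of 0.625 and 0.875 within pairs (where no p under 0.125 is possible).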
